A study of Cristatella mucedo with 12 samples.

Results

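The small and the large mitochondrial ribosomal RNA of the freshwater bryozoan Cristatella mucedo were followed through 12 libraries of polyadenylated RNA. They are the gene models MT_rrnS and MT_rrnL, 2 of the 35949 models in the deposited count table and 2 of the 16 models that carry a mitochondrial name. Both were taken by name, but the pair was chosen by values already seen in these counts. Those values were the low level of MT_rrnS in the edge zone of colonies and the low level of both in frozen statoblasts. The change from central to edge zone, other contrasts that contain edge or central libraries and the course over the statoblast stages are therefore given for the pair as descriptions, without a test.

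All animals were labelled as wildtype, strain isolate SBPEP1, and no further treatment is given. Mature colonies, taken from a stream and kept in an aquarium at room temperature, gave 8 libraries. One dissection separated the central zone (replicates 1 and 2) from the edge zone (replicates 2 and 3). The other separated the end part (replicates 1 and 3) from the middle part (replicates 2 and 3) of elongated colonies. Statoblasts, the dormant capsules from which freshwater bryozoans found new colonies, were stored frozen and gave 4 libraries: defrosted (freezer), day 2, day 4 and day 6 of differentiation at room temperature. Each stage has 1 library, so no stage has a replicate. The labels do not say whether replicates of a zone came from separate colonies, and the numbers behind the titles are not explained.

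Mitochondria carry their own ribosomes, which translate the few proteins encoded by mitochondrial DNA. MT_rrnS is the RNA core of the small ribosomal subunit, which binds messenger RNA, and MT_rrnL is that of the large subunit, which forms the peptide bond. In animals both RNAs are cut from long mitochondrial transcripts that also hold messenger RNAs, and both receive only short tails of adenines. The libraries were made from RNA bound to oligo-dT beads, so the values are levels of captured RNA and need not equal the total amount of ribosomal RNA.

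Both models lay at one end of contig 594, whose name in the table gives a length of 21003 bases and a coverage of 515, against a median of 80 over the 547 contigs. MT_rrnS spans bases 65 to 869 (805 bases) and MT_rrnL bases 1127 to 2426 (1300 bases), with 257 bases between them. After a gap of 1865 bases follows MT_nad5, a subunit of the respiratory NADH dehydrogenase, and then the other 13 protein genes. Among them MT_nad3_1 and MT_nad3_0 carry the same gene name, and each model is counted here as a protein gene. The contig holds no unnamed model, and none of its 16 models overlap. Neither the name of the assembly nor the strand of the models is given in the sources used here. Counts of MT_rrnS were not whole numbers in all 12 libraries and those of MT_rrnL in 11, so part of their reads was shared with other places or models and the levels are uncertain to that extent.

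Libraries held 14787598 to 26089274 counts in mature colonies and 4738221 to 7805888 counts in the statoblast series. Levels are given as CPM, the usual scaling of counts to one library size, and as counts per 100 counts of the 14 mitochondrial protein genes together, a ratio that does not depend on library scaling. The protein genes held 8.66% to 14.4% of counts in mature libraries and 4.44% to 5.93% in statoblast libraries.

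In the freezer library both ribosomal RNAs were far below their later levels, whereas the mitochondrial protein genes as a group were lower by less. The protein genes held 4.44% of counts there, against 5.41% to 5.93% at the later stages. The level of MT_rrnS was 395.0 CPM on defrosting, then 3783 CPM (day 2), 3553 CPM (day 4) and 7573 CPM (day 6). That of MT_rrnL was 871.8, 6388, 5667 and 10666 CPM in the same order. Both were thus lowest in the freezer library, close together at day 2 and day 4, and highest at day 6. In these bulk samples fewer cells of a type and less RNA per cell cannot be told apart.

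**Figure D1:**
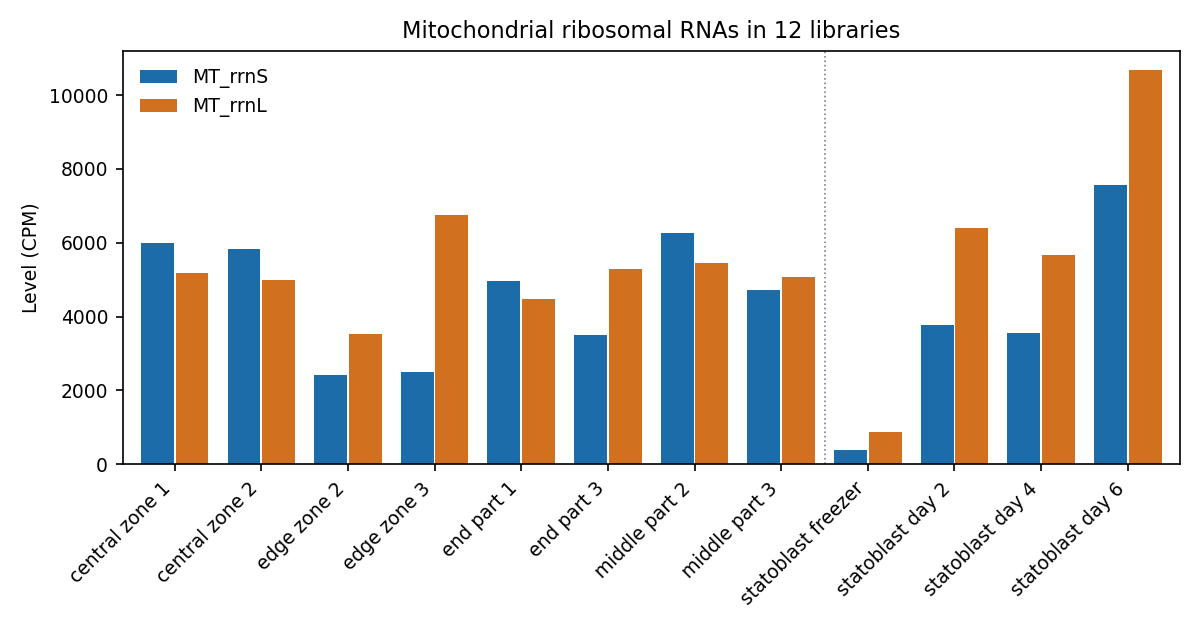
Levels of MT_rrnS and MT_rrnL in CPM (y axis) in each of the 12 libraries (x axis; group and replicate number), with 1 bar per RNA and library and statoblast libraries to the right of the dotted line. The freezer library has the lowest bars (395.0 and 871.8 CPM), the day 6 library the highest (7573 and 10666 CPM), and MT_rrnS is low in both edge zone libraries (2406 and 2509 CPM).

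From the freezer library to day 2, MT_rrnS was 9.58-fold higher, with a 95% counting interval of 9.16 to 10.01. MT_rrnL was 7.33-fold higher (7.11 to 7.55). Intervals of this kind are exact binomial and cover counting error only, not the spread between statoblast samples. Both members passed a change of at least 2-fold upward, as did 5.4% of the 8056 models with at least 50 counts in one of both libraries. At least as large a change as that of MT_rrnS was seen in 28 models, itself included, and as that of MT_rrnL in 37.

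The protein genes of the same contig did not share this step. None of the 14 differed by 2-fold between the freezer and day 2 libraries. Their median ratio was 1.22, and they ran from 0.765-fold for MT_nad6 to 1.49-fold for MT_cox1, which encode subunits of NADH dehydrogenase and of cytochrome c oxidase. The median over all 8056 models was 0.962.

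From day 2 to day 4 the ribosomal RNAs differed little. The ratio was 0.939 for MT_rrnS (0.920 to 0.959) and 0.887 for MT_rrnL (0.873 to 0.901). Neither passed 2-fold in either direction, against 10.6% of 8489 models. The direction depends on scaling: TMM factors, which discount a few very abundant transcripts, shift every log2 change of this step by 0.14 and turned that of MT_rrnS from -0.09 to 0.05 (MT_rrnL from -0.17 to -0.03).

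From day 4 to day 6 the ribosomal RNAs were higher again, by more than any protein gene. The ratio was 2.13 for MT_rrnS (2.097 to 2.166) and 1.88 for MT_rrnL (1.858 to 1.907). MT_rrnS alone passed the 2-fold line upward, against 4.43% of 9378 models, and MT_rrnL lay just below it. All 14 protein genes had a ratio below 1, from 0.828 to 0.9995, with a median of 0.899, but this direction depends on scaling, since with TMM factors 11 of 14 lay below 1 (median 0.952). Over the whole series, from freezer to day 6, the ratio was 19.2 for MT_rrnS, 12.2 for MT_rrnL and 1.21 for the median protein gene; TMM factors shift these log2 changes by 0.22.

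**Figure D2:**
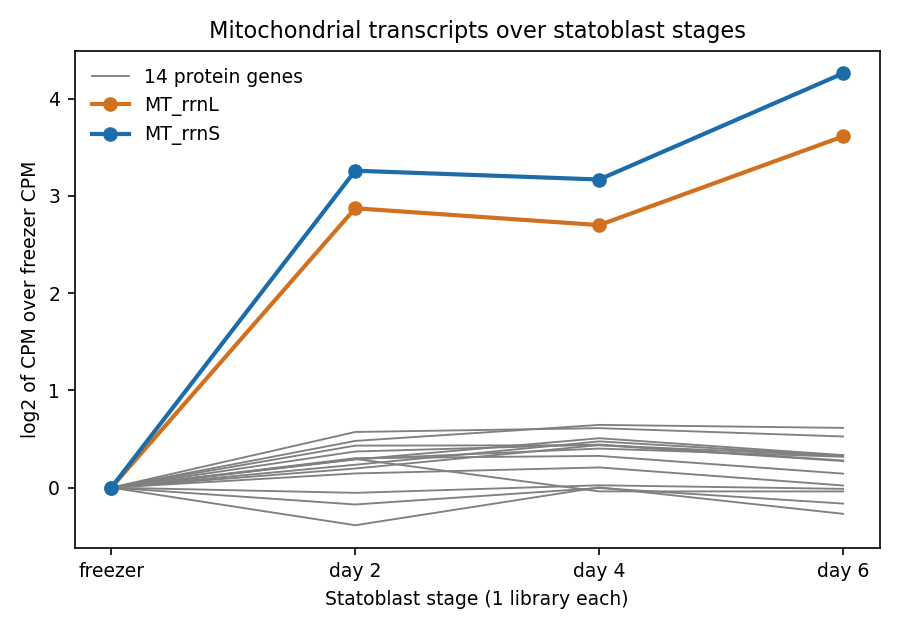
Change in level since the freezer library, as log2 of the CPM ratio (y axis), for MT_rrnS, MT_rrnL and each of the 14 mitochondrial protein genes (grey lines) over 4 statoblast stages with 1 library each (x axis). Both ribosomal RNAs lie near 3 on the log2 scale at day 2 (3.26 and 2.87) and above that at day 6 (4.26 and 3.61), and the protein genes stay below 1 throughout.

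Relative to the protein genes, MT_rrnS was 15.7-fold and MT_rrnL 10.05-fold higher at day 6 than in the freezer library. Per 100 counts of protein genes, MT_rrnS had 0.889 in the freezer library, 6.74 at day 2, 5.99 at day 4 and 13.99 at day 6. MT_rrnL had 1.96, 11.4, 9.55 and 19.7. In the freezer library both ratios were below those of all 8 mature libraries (1.98 to 5.36 for MT_rrnS and 2.90 to 7.64 for MT_rrnL), and at day 2, day 4 and day 6 both were above them. A ratio to the protein genes below all mature libraries was found in the freezer library for 33.5% of the 15089 models with at least 50 counts in some library. One above all of them was found for 51.4% at day 2, 54.5% at day 4 and 57.3% at day 6, so such a place was common among all models.

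The 16 models were also ordered per length, which allows genes to be compared. Per kilobase of model, MT_rrnS stood at 490.6 CPM in the freezer library and MT_rrnL at 670.6 CPM, below all 14 protein genes, of which MT_nad5 was the lowest at 1255 CPM and MT_cox2, a subunit of cytochrome c oxidase, the highest at 8020 CPM. At day 6 the same measure gave 9407 CPM for MT_rrnS, above all 14 protein genes. MT_rrnL followed at 8204 CPM, with only MT_cox2 above it among the protein genes, at 8863 CPM. At day 2 and day 4 both RNAs ranked between the 7th and the 9th place of the 16 models. By CPM among all models of the table, MT_rrnS went from rank 388 in the freezer library to rank 4 at day 6, and MT_rrnL from rank 189 to rank 2.

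In CPM, the stages lay on both sides of the mature range. Mature libraries had 2406 to 6268 CPM of MT_rrnS (median 4837) and 3536 to 6764 CPM of MT_rrnL (median 5126). In the freezer library both RNAs lay below all 8 mature libraries, as did 45.5% of the 15089 models with at least 50 counts in some library. At day 6 both lay above all 8, as did 41.3%. At day 2 neither RNA lay outside the mature range, whereas 82.2% of models did, and at day 4 again neither did, against 79.1%. A place outside the mature range was thus common among all models. Of the 14 protein genes, 12 lay below all mature libraries at each of the 4 stages.

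Within mature colonies, MT_rrnS was low in both edge libraries, whereas MT_rrnL was low in one of them and high in the other. MT_rrnS had 5996 and 5840 CPM in central zone replicates 1 and 2 and 2406 and 2509 CPM in edge zone replicates 2 and 3. The central mean of 5918 ± 110.0 CPM and the edge mean of 2458 ± 72.4 CPM (SD, n = 2 each) gave a 2.41-fold difference. Both edge libraries lay below both central libraries, which in the same direction held for 48.2% of the 18085 models tested. In CPM it also held for 11 of the 14 protein genes, so this separation was not particular to MT_rrnS on the contig.

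MT_rrnL had 5178 and 4987 CPM in the central zone and 3536 and 6764 CPM in edge zone replicates 2 and 3. One edge library was thus the lowest and the other the highest of all 8 mature libraries, and the groups overlapped. The mean was 5082 ± 135.1 CPM in the central zone, against 5150 ± 2283 CPM at the edge (SD, n = 2 each).

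In edgeR's quasi-likelihood fit over all 18085 models, with TMM scaling, the log2 fold change from central to edge zone was -0.87 (SE 0.29) for MT_rrnS and 0.39 (SE 0.30) for MT_rrnL. No call is given for either RNA, since this comparison led to the choice of the pair; of all models, edgeR called 10.9% lower. Leaving out central zone replicates 1 and 2 and edge zone replicates 2 and 3 in turn gave -0.97, -0.76, -0.91 and -0.83 for MT_rrnS. The value for MT_rrnL turned to -0.05 without edge zone replicate 3. Of the 14 protein genes edgeR called 0 and the DESeq2 Wald test 0, with 0 at an unadjusted p under 0.05 in either. Their median log2 fold change was 0.02, against -0.01 over all models, and all 14 lay between MT_rrnS and MT_rrnL. The lowest of them was MT_atp8, a subunit of ATP synthase, at -0.52 (SE 0.44).

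Scaling matters for this comparison, since TMM and library totals placed the edge libraries differently. With library totals alone the median of all models moved from -0.01 to -0.42, MT_rrnS to -1.27 and MT_rrnL to 0.02. The ratio to the protein genes is free of this choice. MT_rrnS had 4.18 and 4.07 counts per 100 in the central zone, 1.98 and 2.83 at the edge, 3.65 and 4.04 in the end part and 4.35 and 5.36 in the middle part. Both edge libraries were the lowest of the 8, as they were for 14.8% of the 14643 models with at least 50 counts in some mature library. MT_rrnL had 3.61 and 3.48 per 100 in the central zone, 2.90 and 7.64 at the edge, 3.29 and 6.12 in the end part and 3.78 and 5.76 in the middle part, with no separation by zone.

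**Figure D3:**
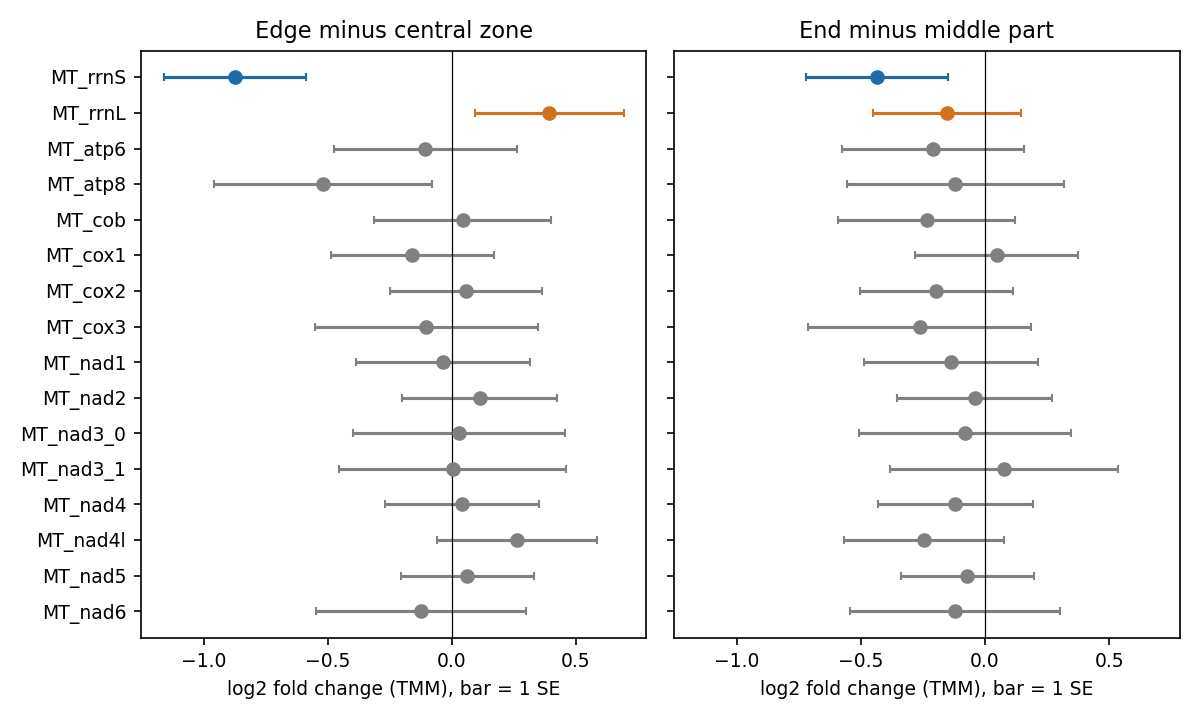
Log2 fold changes (x axis; edgeR with TMM scaling, bars of 1 SE, 8 mature libraries) of the 16 mitochondrial models (y axis) for the edge against the central zone and for the end against the middle part. MT_rrnS is the leftmost point in both panels (-0.87 and -0.43), MT_rrnL is the rightmost in the first (0.39), and the bars of the protein genes reach or nearly reach 0.

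The second dissection asked whether the tips of elongated colonies differ from their middle. MT_rrnS had 4957 and 3500 CPM in end part replicates 1 and 3 and 6268 and 4717 CPM in middle part replicates 2 and 3. For MT_rrnL the end libraries gave 4469 and 5297 CPM, against 5446 and 5074 CPM from the middle. The groups overlapped for both. The log2 fold change was -0.43 for MT_rrnS (SE 0.28, unadjusted p = 0.149, edgeR adjusted p = 0.540) and -0.15 for MT_rrnL (SE 0.30, unadjusted p = 0.613, edgeR adjusted p = 0.861). Neither was called by edgeR or DESeq2, and edgeR called 0.343% of models in either direction. Of the 14 protein genes 0 were called by either tool and 0 had an unadjusted p under 0.05, with a median log2 fold change of -0.12 against 0.01 over all models.

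The 2 dissections were set against each other in 1 contrast, which takes the end and middle difference from the edge and centre difference. It contains the values that chose the pair and is given without a test. The difference was -0.44 for MT_rrnS (SE 0.40) and 0.55 for MT_rrnL (SE 0.42), and edgeR called 2.18% of all models in this contrast. With library totals alone it was -0.89 for MT_rrnS and 0.13 for MT_rrnL. No call is given on whether the change of MT_rrnS was larger at the edge than at the ends.

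The outer zones of both kinds of colony were also set against each other, as were the inner zones; here zone and kind of colony cannot be told apart. The libraries are the same ones used above, and the edge libraries are those whose low MT_rrnS chose the pair. Edge zone against end part gave a log2 fold change of -0.29 for MT_rrnS (SE 0.28) and 0.55 for MT_rrnL (SE 0.30), as descriptions without a test; of all models edgeR called 20.5%. In CPM both edge libraries lay below both end libraries for MT_rrnS, as they did for 53.6% of models, and with library totals alone the log2 fold change of MT_rrnS was -0.78. Of the protein genes 0 were called by edgeR or DESeq2 and 1 had an unadjusted p under 0.05 in each, which in edgeR was MT_nad4l at 0.77 (edgeR adjusted p = 0.103).

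Central zone against middle part gave 0.15 for MT_rrnS (SE 0.28) and 0.00 for MT_rrnL (SE 0.30), again as descriptions without a test. The central libraries belong to the comparison that led to the choice of the pair. Of all models edgeR called 0.271%. The protein genes had a median of 0.37 and 0 calls by either tool, with 0 at an unadjusted p under 0.05. By mean CPM, MT_rrnS was ordered central zone, middle part, end part and edge zone from high to low, and of these neighbours only end part and edge zone did not overlap. For MT_rrnL the order was middle part, edge zone, central zone and end part, and all neighbours overlapped.

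The ratio of the small to the large RNA shows how far the pair parted within mature colonies. It was 1.16 and 1.17 in the central zone, 1.11 in end part replicate 1 and 1.15 in middle part replicate 2. It was lower in the remaining libraries, at 0.681 and 0.371 in edge zone replicates 2 and 3, 0.661 in end part replicate 3 and 0.930 in middle part replicate 3. The edge libraries were thus not set apart from end part replicate 3. The statoblast libraries had 0.453 in the freezer library, 0.592 at day 2, 0.627 at day 4 and 0.710 at day 6, all inside the mature range of 0.371 to 1.17. Per kilobase these ratios are 1.61-fold larger by construction, so per length MT_rrnS exceeded MT_rrnL in 7 of 8 mature libraries and in 2 of 4 statoblast libraries.

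**Figure D4:**
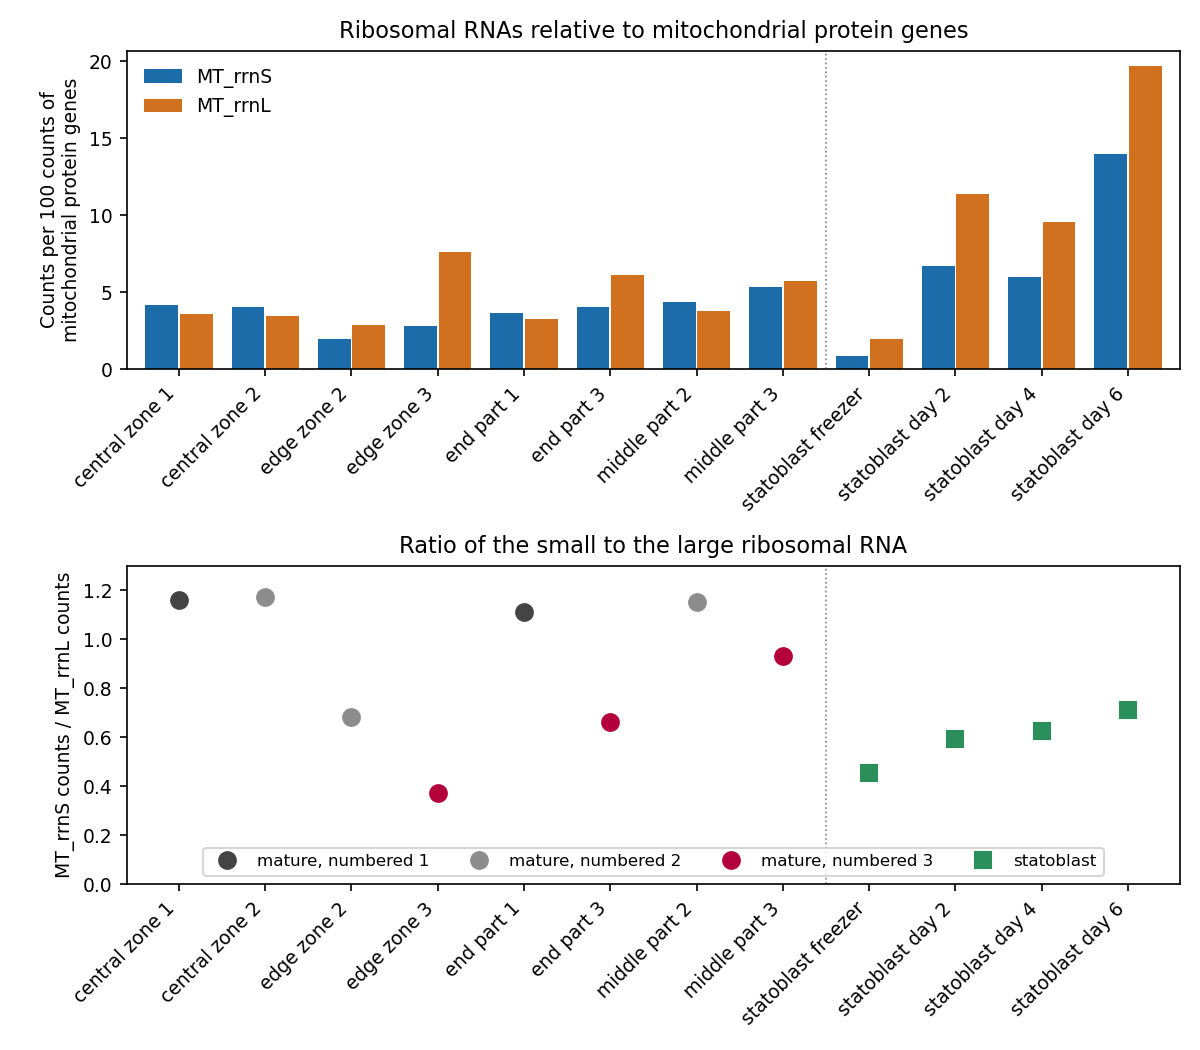
Upper panel, counts of MT_rrnS and MT_rrnL per 100 counts of the 14 mitochondrial protein genes (y axis) in each library (x axis); lower panel, counts of MT_rrnS divided by those of MT_rrnL, with mature libraries coloured by the number in their title. Both edge libraries have the lowest mature bars of MT_rrnS (1.98 and 2.83), the libraries numbered 3 have the highest mature bars of MT_rrnL (5.76 to 7.64), and the ratio of both is 1.11 to 1.17 in 4 of the mature libraries.

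Libraries numbered 3 stood apart in the ratio of MT_rrnL to the protein genes. It was 7.64, 6.12 and 5.76 per 100 in edge zone, end part and middle part replicates 3, against 2.90 to 3.78 in the 5 libraries numbered 1 or 2. Such a separation in the same direction was found for 29.8% of the 14643 models. The protein genes are the denominator of the MT_rrnL ratio and went the other way. They held 8.66% to 8.85% of counts in the 3 libraries against 12.2% to 14.4% in the 5. In CPM the level of MT_rrnL overlapped, at 5074 to 6764 against 3536 to 5446. What the number 3 marks is not stated, and the central zone has no library of that number.

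Within a number, MT_rrnS was lowest at the edge each time. Among libraries numbered 2 it had 2406 CPM at the edge, 5840 CPM in the central zone and 6268 CPM in the middle part. Among those numbered 3 it had 2509 CPM at the edge, 3500 CPM in the end part and 4717 CPM in the middle part. With 1 library per zone and number these are values without a test. The low MT_rrnS of these edge libraries chose the pair, so neither this order nor the ratio below is separate support. The ratio of MT_rrnS to MT_rrnL was also lowest at the edge, at 0.681 against 1.17 in the central zone and 1.15 in the middle part among libraries numbered 2, and at 0.371 against 0.661 in the end part and 0.930 in the middle part among those numbered 3.

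Over the 8 mature libraries the levels of both RNAs, as log2(CPM + 1), gave a Pearson's r of 0.11 and a rho of 0.19 by Spearman, and r = 0.04 without both edge libraries, the 2 farthest from the median of MT_rrnS. These are descriptions over libraries that share zones. Over all 12 libraries, MT_rrnL ranked 27th of 9047 models with a mean of at least 10 CPM in likeness to MT_rrnS, by Pearson's r of the same log2 values (r = 0.88), and the median r of the protein genes was 0.48. That likeness rests on the freezer library, since without it r was 0.39 and the rank 1705, with a median r of 0.15 for the protein genes. Over the 8 mature libraries the order was reversed for MT_rrnS. The protein genes there had a median r of 0.54 with MT_rrnS, above the 0.11 of MT_rrnL. With MT_rrnL their median r was -0.34 over the mature libraries, below its 0.11 with MT_rrnS, and -0.66 over the 11 libraries without the freezer library. Names for the remaining identifiers are not paired with them in the table. Most like MT_rrnS was g9965 on contig 7 (bases 2403857 to 2406943, r = 0.95), at 34.7 and 38.9 CPM at the edge and 51.4 to 60.0 CPM in the other mature libraries. Its statoblast levels were 3.39, 47.5, 27.4 and 62.0 CPM in order of stage. At day 4 it thus lay below both edge libraries, whereas MT_rrnS lay above them. Most like MT_rrnL was g14060 on contig 10 (bases 3590922 to 3597877, r = 0.94), with 11.98 to 23.3 CPM in mature libraries and 0.892, 13.5, 21.7 and 30.6 CPM from the freezer library to day 6. Without the freezer library these values of r were 0.71 (rank 283) and 0.61 (rank 1387), so neither model was then the closest. In the freezer library g9965 had 19 counts and g14060 had 5.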

How the data were processed

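Per the labels' protocols, RNA was selected on oligo-dT beads, made into directional libraries and sequenced paired-end or single-end; which library was run in which way is not stated. The submitters' processing notes list HISAT2 2.1.0 and featureCounts 1.5.1. The values deposited by the authors are expected counts, partly fractions, without normalization; the sources used here give no assembly, annotation or strand setting. Per the labels 2 biological replicates were made of each sample; each statoblast stage has 1 library here. No sequence of the models was used.

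Counts were rounded (totals moved by at most 0.00408%) and tested in edgeR 4.0.16 (R 4.3.3; filterByExpr, TMM, glmQLFit and glmQLFTest, Benjamini-Hochberg over all models, threshold 0.05) with 4 group means over 8 mature libraries. SE stands for the size of the log2 fold change over the square root of F and is not an output of edgeR. p-values measure the spread between these libraries, which may be technical. DESeq2 1.42.0 was an alternative. The edgeR fit was tried on simulated counts for edge against central zone and end against middle part only, not for the stage steps. Counts of same-group libraries differed beyond sampling noise (chi-square of 29.5 to 51.4 per model).

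The stage steps, with no test, counted models with at least 50 counts in one of both libraries, with 0.5 added to counts for the share of models past 2-fold. All mitochondrial models other than the pair served as protein genes. For likeness the rule took the closest unnamed models by Pearson's r at a mean of at least 10 CPM; the closest of each member is given. The members, lists and limits were chosen with earlier results of these data known. Numbers were not treated as pairs in the main fit. Over all models tested, same-numbered libraries of different groups did not all deviate together (correlations -0.13 to 0.27). In groups of 2 libraries the deviations mirror each other, so these correlations are not independent and cannot decide the matter for this pair. The share of counts of the protein genes did set libraries numbered 3 apart, and the replicate block is given as an alternative. Python 3.11.15, pandas 2.3.3, numpy 2.4.6, scipy 1.17.1 and matplotlib 3.10.9 were used.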

Additional observations from a re-analysis of the deposited data

How the results depend on the processing

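Each zone contrast of MT_rrnS and MT_rrnL was recomputed with other scalings, without a filter, with DESeq2, with only the 4 libraries compared, with a replicate block and without each mature library. MT_rrnS was lower at the edge than in the centre under all of them, from -1.27 to -0.70 on the log2 scale; over the 8 libraries left out in turn it ran from -0.97 to -0.76, where a zone left with 1 library is assumed to vary like the others. MT_rrnL at the edge ran from -0.055 to 0.74 over the same. All settings reuse edge libraries whose low MT_rrnS chose the pair, so the constant sign of MT_rrnS is not separate support. Edge against end moved most for MT_rrnS with library totals alone (-0.78). Central against middle changed sign between settings: for MT_rrnL it was 0.0011 without a filter, 0.16 with the replicate block, 0.00029 with 4 libraries and 0.0024 in DESeq2, and -0.11 to 0.11 over the libraries left out, and for MT_rrnS it was -0.095 to 0.44 over the latter. The cause was not tested. With the replicate block the change from central to edge zone was -0.70 for MT_rrnS and 0.19 for MT_rrnL, and neither RNA was called in end against middle. The count of models called ran from 836 to 5101 for edge against central zone (main 4289), 35 to 1079 for end against middle (62), 348 to 4808 for edge against end (3706), 22 to 889 for central against middle (49) and 36 to 2944 for the difference between the dissections (394). With TMM over 12 libraries the step from day 2 to day 4 was 0.051 for MT_rrnS and -0.032 for MT_rrnL, and that from day 4 to day 6 was 1.17 and 0.99. With totals that leave out mitochondrial models no step moved beyond its counting interval. Relative to the median mature library the ratio of both RNAs to the protein genes kept its sign at each stage with MT_cox1 or the median protein gene as denominator. Each RNA had at least 2214 counts in every library, and each statoblast stage has 1 library.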
